A study of Mus musculus with 31 samples.

Results

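The mRNAs of CLIPΔ mouse embryonic stem cells (mESCs) were compared with those of WT mESCs. The members are the genes whose mean over the 2 WT and the 2 CLIPΔ RNA-seq libraries reached 1 TPM, a read count scaled to transcript length and to the library total. This left 11642 of the 15034 genes in the deposited table, and the 4 libraries are among 12 RNA-seq libraries in a series of 31 samples. Both genotypes are ES-E14TG2a cells cultured, by the paper's account, with lif and 2i, a pair of inhibitors of the kinases Mek and Gsk3. The labels also name a medium with serum and lif. By the paper's account, the WT mESCs and the lines made from them carry a FLAG tag on both *Trim71* alleles, which the labels of these libraries do not mention. Trim71 is an RNA-binding protein that represses mRNAs, and CLIPΔ cells lack the stretch of the *Ago2* 3'UTR that it binds, cut out of both alleles with a pair of sgRNAs. *Ago2*, the Argonaute protein that carries miRNAs to their targets, is intact in its coding sequence in both genotypes. The paper describes 2 CLIPΔ clones, each grown from 1 edited cell, and the labels do not say which library came from which clone, so that a difference between CLIPΔ and WT libraries and a difference between clones cannot be told apart. Nor do the labels say whether the 2 replicates of a genotype were separate cultures, so that p-values measure the spread between these libraries. The *Ago2* knockout (KO) and the *Ago2* KO/CLIPΔ genotypes, with 4 libraries each, were used only to ask whether a difference was also found without *Ago2*.

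mESCs in 2i and lif are held in a naive state close to that of the inner cell mass, with the Fgf–Erk pathway inhibited, the Wnt pathway active and DNA methylation low. Genes of the naive state include transcription factors such as *Pou5f1*, *Nanog* and *Klf4*, and genes of the oocyte and the early embryo such as *Dppa3*. On the way to differentiation some of these, such as *Klf4* and *Dppa3*, give way to genes of the formative state, such as *Pou3f1* and *Sox11*. let-7 miRNAs, whose targets include *Lin28a* and *Trim71*, work in the opposite direction to *Lin28a* in this transition.

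The 2 sgRNAs that define the CLIPΔ genotype are shown because every comparison here rests on this deletion. The spacers are in lower case, 5' to 3', and the PAM in the reference genome is in capitals.
sgRNA 1: cctcacacccacccgcttgcTGG
sgRNA 2: tctttctatcaagcgccgctCGG
On GRCm38 (mm10), the first lies on the minus strand of chromosome 15 from 73103583 to 73103602 and the second on the plus strand from 73103464 to 73103483. The region between the cuts predicted from them has 105 bp and lies in the 3'UTR of *Ago2*. This is a prediction, and the paper, which aligned the sequences of its clones, gives a somewhat larger size for the deleted region. A TPM value is summed over the whole transcript and does not show whether this region was lost.

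The mRNA of the targeted gene was not called. *Ago2* stood at 28.2 and 21.6 TPM in WT and 27.3 and 20.3 TPM in CLIPΔ mESCs, and the groups overlapped (log2 fold change -0.065 ± 0.10, limma, adjusted p = 0.745). *Trim71* stood at 34.9 and 34.9 TPM in WT and 27.1 and 27.6 TPM in CLIPΔ mESCs. Both CLIPΔ libraries were below both WT libraries, and the difference did not pass the test (log2 fold change -0.34 ± 0.10, limma, adjusted p = 0.131). *Lin28a*, which blocks the processing of let-7 precursors, stood at 108 and 104 TPM in WT and 44.6 and 72.1 TPM in CLIPΔ mESCs, again with no overlap and no call (log2 fold change -0.88 ± 0.18, limma, adjusted p = 0.0754). Both cells expressed the markers of mESCs, with *Pou5f1* at 2672 and 2879 TPM in WT and 2313 and 2754 TPM in CLIPΔ mESCs and *Nanog* at 1204 and 749 TPM in WT and 1069 and 939 TPM in CLIPΔ mESCs. Of the 26 tested genes of naive and core pluripotency, *Dppa3* rose and *Klf4* fell, and the list had a median log2 fold change of -0.12 against -0.050 for all genes tested.

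The libraries paired by replicate number. Each library was closer to the library of the other genotype with the same number (Pearson's r = 0.985 and 0.989 across the genes tested) than to the other library of its own genotype (r = 0.978 for WT and 0.980 for CLIPΔ). Across genes, which are not independent replicates, the difference between replicates 1 and 2 in WT mESCs correlated with the same difference in CLIPΔ mESCs at r = 0.716. Replicates 1 and 2 of the *Ago2* KO genotypes did not share this difference, since its correlation with theirs lay between -0.072 and 0.042. The labels do not say what libraries with the same number have in common.

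The comparison was therefore read both ways. Without pairing, 0 genes passed an adjusted p of 0.05 (limma on log2(TPM + 1), Benjamini–Hochberg adjustment), or 0% of the genes tested, and 604 genes, or 5.19%, had an unadjusted p under 0.05. With the replicate number as a block, 333 genes passed, or 2.86%, of which 191 (1.64%) were higher and 142 (1.22%) lower in CLIPΔ mESCs. A gene is said to rise or fall here only if it passed this paired test, and the standard errors are those of the paired fit. The paired fit leaves 1 residual degree of freedom per gene and borrows the rest of its error from the other genes. Its count depended on scaling and filter, with 918 genes after median centring and 0 without a filter on low values, where 2869 genes had an unadjusted p under 0.05. With 2 libraries against 2, an exact permutation test of a single gene cannot go below p = 0.333. By rank alone, 1343 genes (11.5%) had both CLIPΔ libraries above both WT libraries and 2250 (19.3%) had both below.

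**Figure D1:**
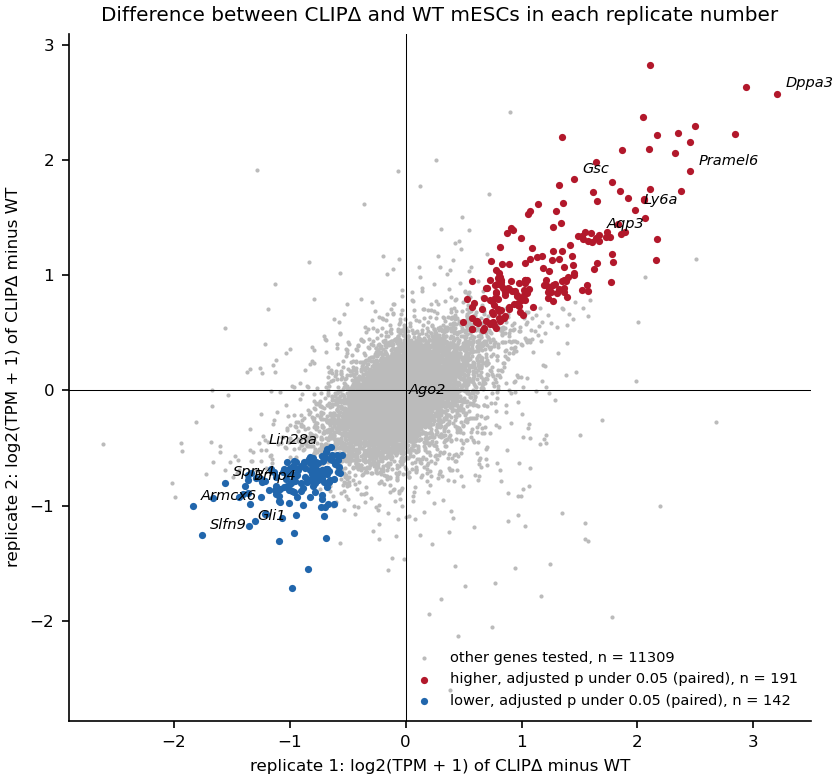
Each point is a gene, placed by the difference in log2(TPM + 1) between CLIPΔ and WT mESCs in replicate 1 (x axis) and in replicate 2 (y axis), with the 191 genes that rose in red and the 142 that fell in blue. The called genes lie along the diagonal, *Dppa3* at 3.21 and 2.58, while *Ago2* lies at the centre.

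The genes that rose changed further than those that fell. Their median log2 fold change was 1.06, with 105 of 191 changed more than 2-fold, against -0.83 and 31 of 142 for the genes that fell. Their median level was 9.72 TPM, below the 15.4 TPM of all genes tested, and 13.7 TPM for those that fell. A pseudocount of 1 shrinks the fold changes of genes at this level.

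Genes of the oocyte and the early embryo were among those that rose most. *Dppa3*, which encodes a maternal protein that shields DNA from oxidation of its methyl groups, stood at 28.3 and 18.8 TPM in the WT libraries and at 269 and 117 TPM in the CLIPΔ libraries. The lower CLIPΔ value was several times the higher WT value, and the fold change was 7.42 on the log2(TPM + 1) scale (log2 fold change 2.89 ± 0.16, adjusted p = 0.0111, limma). CLIPΔ replicate 1 was the higher of its pair, and the log2 fold change was 2.29 without it and 3.49 without CLIPΔ replicate 2. In bulk RNA, more cells that express a gene and more mRNA per cell cannot be told apart. *Pramel6*, a member of the Prame family expressed in the inner cell mass, stood at 12.02 and 16.8 TPM in WT and 70.3 and 65.4 TPM in CLIPΔ mESCs, a 4.53-fold rise (log2 fold change 2.18 ± 0.15, adjusted p = 0.0118, limma). Its relative *Pramel7* moved from 9.43 and 9.45 TPM to 28.3 and 25.4 TPM (log2 fold change 1.41 ± 0.11, adjusted p = 0.0122, limma). *Aurkc*, a kinase of meiosis and the first cleavages, was at 1.94 and 1.28 TPM and rose to 11.2 and 10.8 TPM (log2 fold change 2.21 ± 0.14, adjusted p = 0.0112, limma). *Eif4e1b*, an oocyte form of the cap-binding protein and the single one of 64 translation factors to be called, rose from 2.16 and 1.10 TPM to 8.62 and 4.13 TPM (log2 fold change 1.45 ± 0.14, adjusted p = 0.0194, limma). In these 5 genes the groups did not overlap.

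To see whether these genes stood alone, a list of 22 oocyte and early embryo genes was put together after the values had been seen, so its count is a description. Of its 10 tested members, 6 rose and 0 fell, against 1.64% and 1.22% of all genes tested, and the median log2 fold change was 1.26. The sixth was *Khdc3*, a subunit of the subcortical maternal complex, with 399.9 and 874 TPM in WT and 844 and 1927 TPM in CLIPΔ mESCs. Both genotypes were higher in replicate 2 and the groups overlapped, while both pairs gave a rise (1.08 and 1.14 on the log2 scale). *Ooep*, another subunit of the complex, stood at 208 and 180.1 TPM and 202 and 228 TPM and was not called. Among germline genes, a list of 32 of which 15 were tested, 1 rose, the cancer-testis antigen *Magea4* (26.6 and 20.3 TPM to 55.2 and 40.3 TPM, log2 fold change 0.99 ± 0.10, adjusted p = 0.0194, limma), and 5 (33.3%) had both CLIPΔ values above both WT values, against 11.5% of all genes tested. Of the 2-cell-like genes, 6 were tested, and the 2 that rose were *Pramel6* and *Pramel7*, while the median of the list was -0.16.

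**Figure D2:**
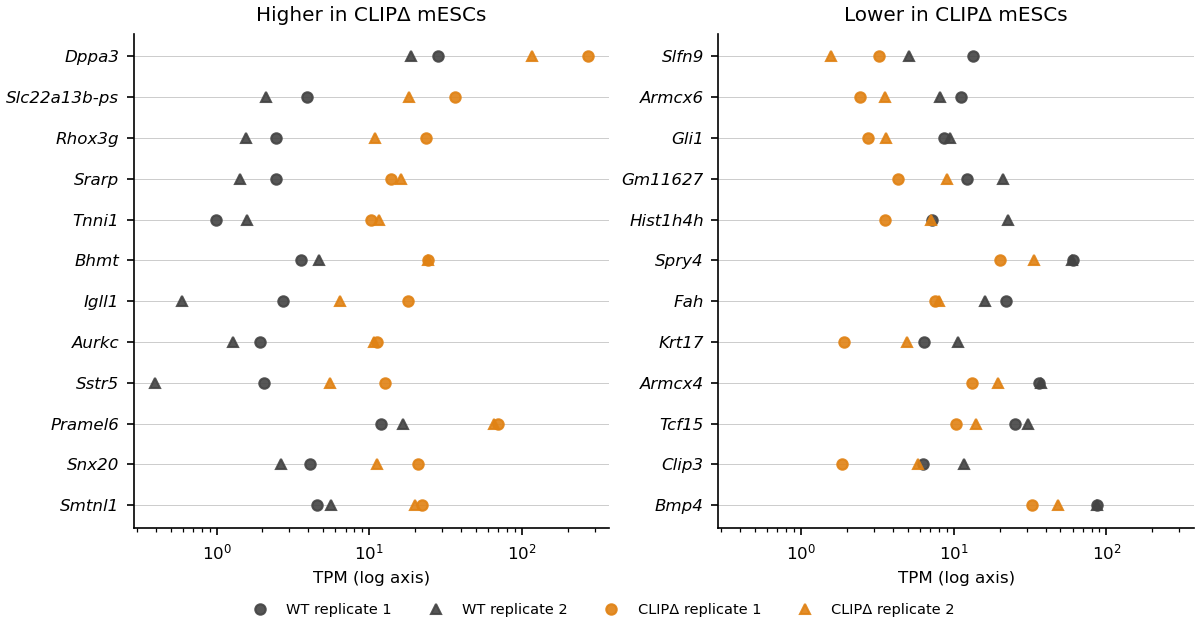
TPM (log axis) in the 2 WT (grey) and the 2 CLIPΔ (orange) libraries for the 12 genes with the highest and the 12 with the lowest fold changes among called genes that averaged 5 TPM or more and had no overlap. Circles are replicate 1 and triangles replicate 2, and *Dppa3* reaches 269 and 117 TPM in CLIPΔ mESCs. The gap between genotypes is narrow in *Hist1h4h* and *Clip3*, where CLIPΔ replicate 2 sits just under WT replicate 1.

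Genes better known from differentiated tissues rose as well, from low levels. *Tnni1*, the troponin I of slow muscle, went from 0.995 and 1.57 TPM to 10.2 and 11.6 TPM (log2 fold change 2.39 ± 0.13, adjusted p = 0.0111, limma). *Srarp*, a regulator of steroid receptors, went from 2.45 and 1.43 TPM to 13.9 and 16.2 TPM (log2 fold change 2.47 ± 0.19, adjusted p = 0.0127, limma). *Smtnl1*, a smoothelin-like protein of muscle, stood at 4.55 and 5.61 TPM in WT and 22.1 and 19.9 TPM in CLIPΔ mESCs (log2 fold change 1.86 ± 0.14, adjusted p = 0.0122, limma). In all 3 the replicates of a genotype lay close together, and *Tnni1*, *Srarp*, *Bhmt*, *Aurkc*, *Pramel6* and *Oas1f* had the 6 smallest unadjusted p-values without pairing, from 5.85e-05 for *Bhmt* to 0.000123 for *Srarp*. *Sstr5*, a somatostatin receptor, rose from 2.06 and 0.398 TPM to 12.7 and 5.50 TPM, *Snx20*, a sorting nexin of leukocytes, from 4.08 and 2.64 TPM to 20.9 and 11.3 TPM, and *Igll1*, part of the surrogate light chain of B-cell precursors, from 2.72 and 0.594 TPM to 17.95 and 6.48 TPM. The last depended most on single libraries, with a log2 fold change between 1.62 without CLIPΔ replicate 1 and 2.96 without CLIPΔ replicate 2. *Rhox3g*, a reproductive homeobox gene of the X chromosome (2.44 and 1.57 TPM to 23.6 and 10.99 TPM), and the transporter pseudogene *Slc22a13b-ps* (3.94 and 2.11 TPM to 36.8 and 18.3 TPM) rose too. They have close copies in the genome, among which the authors' counting could split reads.

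T-cell surface genes were noticed among the risen genes, and a list of 17 was made after their values had been seen. Of 7 tested, 4 rose, against 1.64% of all genes tested. *Cd4* stood at 0.410 and 0.669 TPM in WT and 5.06 and 6.12 TPM in CLIPΔ mESCs, *Cd3d* at 0.177 and 0.187 TPM and 1.95 and 3.08 TPM, *Cd3e* at 1.58 and 2.31 TPM and 6.67 and 5.01 TPM, and *Cd2* at 0.853 and 1.55 TPM and 4.43 and 5.61 TPM. All 4 were low and had no overlap. *Cd4* and *Cd3d* were under 1 TPM in both WT libraries and reached the mean of 1 TPM only through the CLIPΔ libraries, so a listed gene that was as low in WT and stayed low was not among those tested. The kinases that signal from these receptors were not called, with *Lck* at 4.14 and 8.50 TPM in WT and 3.16 and 6.52 TPM in CLIPΔ mESCs and *Zap70* at 1.11 and 1.43 TPM in WT and 1.22 and 1.502 TPM in CLIPΔ mESCs. *Ptprc*, which encodes the pan-leukocyte antigen CD45, was not among the genes tested.

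Of the genes at high levels, *Ly6a*, *Calcoco2*, *Aqp3*, *Trh* and *Dppa3* had the largest fold changes among those that averaged 100 TPM or more. *Ly6a*, which encodes the surface protein Sca-1, stood at 109 and 113 TPM in WT and 432 and 338 TPM in CLIPΔ mESCs, a 3.42-fold rise (log2 fold change 1.77 ± 0.12, adjusted p = 0.0118, limma). It has near relatives in the Ly6 family. *Aqp3*, a channel for water and glycerol, stood at 205 and 227 TPM in WT and 654 and 581 TPM in CLIPΔ mESCs (log2 fold change 1.51 ± 0.11, adjusted p = 0.0122, limma), and *Calcoco2*, an autophagy receptor, at 84.6 and 77.8 TPM in WT and 284 and 203 TPM in CLIPΔ mESCs (log2 fold change 1.55 ± 0.12, adjusted p = 0.0122, limma). In these 3 genes both pairs gave a rise of more than 2-fold. *Trh*, the precursor of thyrotropin-releasing hormone, was among the highest mRNAs in WT mESCs with 6296 and 3833 TPM, stood at 1989.7 and 2495 TPM in CLIPΔ mESCs and did not pass the test (log2 fold change -1.14 ± 0.25, adjusted p = 0.0796, limma). Some metallothioneins rose too. *Mt1* and *Mt2*, which bind zinc and copper, went from 2678 and 2429 TPM to 4451 and 3638 TPM and from 4559 and 3567 TPM to 8603 and 6475 TPM (log2 fold change 0.89 ± 0.10, adjusted p = 0.0289 for *Mt2*, limma). *Mt4*, seen among the called genes and not in the list of *Mt1*, *Mt2* and *Mt3*, rose from 1.87 and 3.77 TPM to 4.21 and 7.44 TPM (log2 fold change 0.84 ± 0.12, adjusted p = 0.0376, limma). *Mt3* stood at 5.25 and 14.4 TPM in WT and 2.66 and 9.68 TPM in CLIPΔ mESCs and was not called.

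Enzymes of betaine, methionine and glutathione metabolism rose in part. *Bhmt*, which passes a methyl group from betaine to homocysteine, stood at 3.59 and 4.69 TPM in WT and 24.2 and 24.4 TPM in CLIPΔ mESCs, a 4.95-fold rise (log2 fold change 2.31 ± 0.12, adjusted p = 0.0111, limma). Its close copy *Bhmt2* rose from 9.67 and 13.3 TPM to 20.3 and 23.9 TPM, and *Dmgdh*, which oxidizes the dimethylglycine left by this reaction, from 5.02 and 5.87 TPM to 9.15 and 9.90 TPM. *Gss*, the synthetase of glutathione, rose from 25.2 and 31.4 TPM to 44.6 and 55.2 TPM, and *Gsto1*, a glutathione transferase, from 22.1 and 12.1 TPM to 65.9 and 31.5 TPM. In a list of 24 such genes, made after these values had been seen, 7 of 20 tested rose and 0 fell, with a median of 0.12. Of all genes tested, 1.64% rose and 1.22% fell. The subunits of the rate-limiting enzyme of glutathione synthesis were not called, with *Gclc* at 33.3 and 18.1 TPM in WT and 25.6 and 18.1 TPM in CLIPΔ mESCs and *Gclm* at 66.5 and 46.1 TPM in WT and 62.4 and 43.6 TPM in CLIPΔ mESCs. *Mat2a*, the synthase of S-adenosylmethionine, was not called either, at 701 and 286 TPM in WT and 625 and 310.3 TPM in CLIPΔ mESCs. The lists of NRF2 targets (0 of 17 called) and of glycine, serine and folate metabolism (0 of 20) had no call.

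Among the genes that fell were several of Hedgehog signalling. *Gli1*, a transcription factor and target of this pathway, stood at 8.62 and 9.42 TPM in WT and 2.76 and 3.60 TPM in CLIPΔ mESCs, the lowest WT value being more than double the highest CLIPΔ value (log2 fold change -1.27 ± 0.12, adjusted p = 0.0194, limma). *Gli2*, the main activating factor, fell from 4.61 and 7.93 TPM to 2.16 and 4.52 TPM. *Kif7*, a kinesin of the ciliary tip that controls Gli factors, fell from 24.7 and 31.8 TPM to 12.4 and 16.3 TPM (log2 fold change -0.93 ± 0.10, adjusted p = 0.0237, limma). *Evc* and *Evc2*, the pair of ciliary proteins that act with Smoothened, fell from 4.15 and 6.46 TPM to 1.01 and 3.36 TPM and from 3.90 and 4.203 TPM to 1.01 and 2.07 TPM. In a list of 20 Hedgehog genes, made after these values had been seen, 5 of 16 tested fell and 0 rose. Of all genes tested, 1.22% fell and 1.64% rose. In this list 12 (75%) had both CLIPΔ values below both WT values, against 19.3% of all genes tested, and the median was -0.23. The receptor and target *Ptch1* stood at 6.73 and 6.12 TPM in WT and 5.87 and 5.71 TPM in CLIPΔ mESCs (log2 fold change -0.13 ± 0.11, limma, adjusted p = 0.570). *Smo*, the signal transducer, stood at 21.3 and 18.8 TPM in WT and 18.1 and 15.6 TPM in CLIPΔ mESCs and was not called.

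Some genes of the formative state fell. Of 14 tested genes of the formative and primed state, 3 fell, 0 rose and the median was -0.34. *Sox11*, a factor of neural progenitors, stood at 12.2 and 15.4 TPM in WT and 5.58 and 8.05 TPM in CLIPΔ mESCs (log2 fold change -0.93 ± 0.11, adjusted p = 0.0291, limma). *Pou3f1*, an early factor of the formative state, stood at 11.7 and 9.81 TPM in WT and 5.28 and 5.68 TPM in CLIPΔ mESCs (log2 fold change -0.85 ± 0.13, adjusted p = 0.0450, limma), and *Sox4* at 38.2 and 49.2 TPM in WT and 23.3 and 30.3 TPM in CLIPΔ mESCs (log2 fold change -0.68 ± 0.094, adjusted p = 0.0361, limma). *Tcf15*, a factor that primes mESCs for differentiation, is outside this list and was among the lowest fold changes, with 25.1 and 30.6 TPM in WT and 10.3 and 14.0 TPM in CLIPΔ mESCs (log2 fold change -1.14 ± 0.10, adjusted p = 0.0190, limma). In each of the 4 genes the WT and CLIPΔ values were apart in both pairs.

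Lineage markers went in both directions. *Eomes*, a factor of the primitive streak and the trophoblast, stood at 52.9 and 46.1 TPM in WT and 26.3 and 24.7 TPM in CLIPΔ mESCs (log2 fold change -0.93 ± 0.10, adjusted p = 0.0237, limma), and the keratin *Krt17* fell from 6.40 and 10.7 TPM to 1.92 and 4.92 TPM. *Gsc*, a homeobox factor of the organizer, rose from 11.97 and 7.52 TPM to 34.4 and 29.4 TPM (log2 fold change 1.64 ± 0.13, adjusted p = 0.0140, limma), and *Nes*, an intermediate filament of neural progenitors, from 73.7 and 66.0 TPM to 110.0 and 95.7 TPM (log2 fold change 0.55 ± 0.089, adjusted p = 0.0473, limma). *Stmn2*, a microtubule regulator of neurons, fell from 64.2 and 46.5 TPM to 26.5 and 26.8 TPM (log2 fold change -1.01 ± 0.14, adjusted p = 0.0361, limma). *Tfap2c*, a factor of trophoblast and germ cells, rose from 34.1 and 25.1 TPM to 57.5 and 55.7 TPM (log2 fold change 0.93 ± 0.12, adjusted p = 0.0342, limma). Of the germ layer markers, 2 rose and 2 fell among 10 tested, of the neural genes 1 and 1 among 7, and of the trophoblast markers 1 and 1 among 11. No primitive endoderm marker (8 tested) and no fibroblast marker (6 tested) was called. Of all genes tested 2.86% were called, so the lack of a call in lists this short says little about these cell types.

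Feedback inhibitors and a ligand of signalling pathways fell. *Spry4*, an inhibitor of receptor tyrosine kinase signalling that Erk induces, stood at 60.8 and 59.4 TPM in WT and 19.9 and 33.6 TPM in CLIPΔ mESCs, with no overlap (log2 fold change -1.18 ± 0.19, adjusted p = 0.0459, limma). Its relative *Spry1* stood at 42.3 and 39.6 TPM in WT and 24.5 and 24.1 TPM in CLIPΔ mESCs (log2 fold change -0.73 ± 0.10, adjusted p = 0.0338, limma). These were the 2 of 15 tested Fgf and Erk targets that fell, none rose, and the median of the list was -0.42. Among those of the 51 lists with a member tested, this median was the lowest, just below -0.41 for germ layer markers. The lists made after these values had been seen are not among the 51. *Bmp4*, a ligand of the Tgf-β family, stood at 87.1 and 86.9 TPM in WT and 32.7 and 48.5 TPM in CLIPΔ mESCs (log2 fold change -1.11 ± 0.15, adjusted p = 0.0353, limma). It was 1 of 18 Nodal and Bmp targets to be called, in a list with a median of -0.28. Together with *Bmp4*, the Wnt receptor *Fzd7* fell among 17 Wnt targets, from 95.0 and 77.3 TPM to 49.4 and 47.5 TPM (log2 fold change -0.81 ± 0.10, adjusted p = 0.0318, limma), while the median of that list was -0.042. Among 14 targets of Lif and Stat3 the naive factor *Klf4* fell, from 1246 and 1076 TPM to 825 and 731 TPM (log2 fold change -0.57 ± 0.091, adjusted p = 0.0456, limma), with a list median of -0.26. The extracellular matrix list (19 tested, 0 called) had a median of -0.26 as well.

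A pair of regulators of DNA methylation and imprints fell too. *Dnmt3l*, the partner of the de novo methyltransferases, stood at 156 and 202 TPM in WT and 89.3 and 134 TPM in CLIPΔ mESCs (log2 fold change -0.69 ± 0.10, adjusted p = 0.0382, limma). *Zfp57*, which keeps methylation at imprinted loci, stood at 681 and 567 TPM in WT and 437 and 373 TPM in CLIPΔ mESCs (log2 fold change -0.62 ± 0.088, adjusted p = 0.0381, limma). They were 2 of 20 tested genes of DNA methylation, 0 rose, and the median was -0.23. Of 23 imprinted genes 3 fell, all of them maternally expressed noncoding RNAs of the Dlk1–Dio3 domain on chromosome 12. *Meg3* stood at 147 and 132 TPM in WT and 82.3 and 68.7 TPM in CLIPΔ mESCs (log2 fold change -0.88 ± 0.091, adjusted p = 0.0237, limma), *Rian* at 36.7 and 33.8 TPM in WT and 20.3 and 21.4 TPM in CLIPΔ mESCs and *Mirg* at 26.4 and 25.1 TPM in WT and 13.3 and 14.7 TPM in CLIPΔ mESCs, with *Mirg* at -0.84 ± 0.11 on the log2 scale. The levels of the 3 RNAs lay apart between genotypes in every library. The list had a median of -0.27.

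Some genes of the Armcx and Tceal families, which lie near each other and near the Bex genes on the X chromosome, fell. *Armcx6* stood at 11.2 and 8.13 TPM in WT and 2.42 and 3.55 TPM in CLIPΔ mESCs (log2 fold change -1.42 ± 0.21, adjusted p = 0.0427, limma), *Armcx4* at 36.3 and 37.1 TPM in WT and 13.1 and 19.4 TPM in CLIPΔ mESCs (log2 fold change -1.15 ± 0.15, adjusted p = 0.0317, limma), and *Armcx2* at 37.9 and 51.6 TPM in WT and 14.1 and 30.6 TPM in CLIPΔ mESCs (log2 fold change -1.05 ± 0.17, adjusted p = 0.0456, limma). Armcx proteins carry armadillo repeats, and several sit on mitochondria. A list made after the values had been seen held Armcx, Bex and Tceal genes and also *Gprasp1*, *Gprasp2* and *Bhlhb9*. Of its 17 tested members 4 fell, *Tceal5* being the fourth, against 1.22% of all genes tested. No Bex gene was called. In 13 (76.5%), *Gprasp1*, *Gprasp2* and *Bhlhb9* among them, both CLIPΔ values lay below both WT values, against 19.3% of all genes tested. None of the 17 had a positive fold change. The median was -0.57, or -0.71 in replicate 1 and -0.36 in replicate 2. The whole X chromosome, with 387 genes tested, had the lowest median of the 20 chromosomes at -0.098, while the other chromosomes lay between -0.079 and -0.024. This rank came from replicate 1, where the X median was -0.13, since in replicate 2 it was -0.051, against -0.052 for all genes tested.

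The remaining genes among the 12 lowest called fold changes without overlap and with a mean of at least 5 TPM were of mixed function. *Slfn9*, a Schlafen gene, stood at 13.4 and 5.12 TPM in WT and 3.25 and 1.56 TPM in CLIPΔ mESCs, and its fold change lay between -0.89 without WT replicate 1 and -2.13 without WT replicate 2. *Fah*, the last enzyme of tyrosine breakdown, stood at 21.9 and 16.1 TPM in WT and 7.48 and 7.998 TPM in CLIPΔ mESCs (log2 fold change -1.18 ± 0.15, adjusted p = 0.0319, limma), and *Clip3*, a microtubule linker protein, at 6.33 and 11.7 TPM in WT and 1.85 and 5.83 TPM in CLIPΔ mESCs (log2 fold change -1.13 ± 0.15, adjusted p = 0.0353, limma). Gm11627, a gene model without a known function, stood at 12.1 and 20.97 TPM in WT and 4.34 and 9.03 TPM in CLIPΔ mESCs. *Hist1h4h*, a copy of histone H4, stood at 7.17 and 22.7 TPM in WT and 3.54 and 7.07 TPM in CLIPΔ mESCs, and its sequence is shared with other copies. In *Hist1h4h* and *Clip3* the highest CLIPΔ value was just below the lowest WT value. Single libraries moved both, *Hist1h4h* from -1.97 without WT replicate 1 to -0.43 without WT replicate 2, and *Clip3* from -1.76 without CLIPΔ replicate 2 to -0.50 without CLIPΔ replicate 1.

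The histone medians had opposite signs in the 2 pairs. Over 49 replication-dependent histone genes the median difference between CLIPΔ and WT mESCs was 0.62 in replicate 1 and -0.66 in replicate 2. Besides *Hist1h4h*, *Hist1h2bm* was called and rose from 1.94 and 2.04 TPM to 7.45 and 4.55 TPM.

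Among immediate early genes the difference between replicates was larger than that between genotypes. *Fos*, a subunit of the AP-1 factor, stood at 459 and 27.9 TPM in WT and 228 and 13.7 TPM in CLIPΔ mESCs, so that both genotypes were higher in replicate 1. Within each pair the CLIPΔ value was lower (-1.01 and -0.98 on the log2 scale), and the gene fell in the paired fit (log2 fold change -0.99 ± 0.089, adjusted p = 0.0190, limma) with an unadjusted p of 0.592 without pairing. Its partner *Jun* did the same, with 339 and 73.0 TPM in WT and 169 and 41.2 TPM in CLIPΔ mESCs (log2 fold change -0.91 ± 0.10, adjusted p = 0.0237, limma). Both changed direction when 1 library was left out, since the remaining groups then differed in replicate number: without WT replicate 1 the fold changes were 1.00 for *Fos* and 0.19 for *Jun*, and without CLIPΔ replicate 2 they were 0.99 and 0.098. *Myc* fell with no overlap, from 48.5 and 77.0 TPM to 30.3 and 47.0 TPM (log2 fold change -0.68 ± 0.092, adjusted p = 0.0353, limma). Among the 19 tested immediate early genes 3 fell, 0 rose, and the median was -0.33, against a median of -1.01 between replicate 2 and replicate 1. In the paired fit the replicate number itself was called in 2591 genes, or 22.3% of those tested, and in 15 of these 19. *Plk2*, a stress-induced kinase and the single call among 25 p53 targets, likewise rose within both pairs (WT 248 and 93.8 TPM, CLIPΔ 506 and 168 TPM) while the groups overlapped, and its log2 fold change ran from 0.13 without CLIPΔ replicate 1 to 1.72 without CLIPΔ replicate 2. Its list had a median of 0.25 and 17 members called by replicate number. The p53 target *Cdkn1a*, which encodes the cell cycle inhibitor p21 and is known as a target of Trim71, stood at 471 and 387 TPM in WT and 624 and 433 TPM in CLIPΔ mESCs and was not called (log2 fold change 0.28 ± 0.10, adjusted p = 0.201, limma). The part that the replicate number plays in these differences was not tested.

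Interferon-stimulated genes went in both directions, with 3 of 17 rising and 2 falling. *Ifitm1* and *Ifitm3*, membrane proteins that restrict viral entry and are high in mESCs, stood at 175 and 124 TPM and 565 and 635 TPM in WT and at 267 and 187 TPM and 843 and 921 TPM in CLIPΔ mESCs. *Oas1a*, a sensor of double-stranded RNA, rose within each pair, from 13.03 and 23.8 TPM to 22.3 and 47.1 TPM. Its relative *Oas1f* rose from 0.820 and 0.741 TPM to 5.65 and 6.40 TPM (log2 fold change 1.98 ± 0.13, adjusted p = 0.0118, limma), and reads may be shared among the Oas1 copies. In a list of the Oas and Schlafen families made after these values had been seen, 3 of 11 tested rose and 1 fell. Of all genes tested, 1.64% rose and 1.22% fell. *Oas1f* reached the mean of 1 TPM only through the CLIPΔ libraries. A relative that was as low in WT and stayed low was therefore not among those tested. *Ddx58*, which encodes the RNA sensor RIG-I, fell from 18.5 and 16.6 TPM to 7.72 and 9.96 TPM (log2 fold change -0.92 ± 0.15, adjusted p = 0.0459, limma), as did the class I molecule *H2-K1*, from 61.5 and 69.1 TPM to 37.7 and 47.3 TPM (log2 fold change -0.61 ± 0.10, adjusted p = 0.0456, limma).

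Few genes of housekeeping functions or of the Hox family were called, as were few of all genes tested (2.86%). At that share, a short list can hold no call without differing from the rest. There was no call among 76 cytoplasmic ribosomal proteins (median 0.014), 75 subunits of the respiratory chain and ATP synthase (0.048), 51 splicing factors (-0.025), 36 proteasome subunits (0.076), 38 cell cycle genes (0.015), 24 genes of mRNA decay (-0.054), 19 ER chaperones (-0.040), 19 apoptosis genes (0.079), 17 genes of fatty acid synthesis (-0.086) and 23 Hox genes (0.055). Glycolysis (21 tested, 0 called) and cholesterol synthesis (25 tested, 0 called) had medians of -0.20 and -0.14. Both CLIPΔ values lay below both WT values in 10 (47.6%) and 5 (20%) of them, against 19.3% of all genes tested. Both lay above in 2 (9.52%) and 0 (0%), against 11.5%. Fold changes were negative in 19 and 24 of them, against 6978 of all 11642 genes tested. Among 28 lysosomal genes 1 rose, *Psap*, the precursor of the saposins (159 and 131 TPM to 268 and 198 TPM), and 11 (39.3%) had both CLIPΔ values above both WT values, against 11.5% of all genes tested, in a list with a median of 0.12. A single member was called in the lists of tubulins and chaperonins (*Tuba3a*, up), heat shock proteins (*Hspa2*, up), hypoxia genes (*Pdk1*, down), ATF4 targets (*Slc7a3*, down, 0.0096 without WT replicate 1) and actin and Yap genes (*Zyx*, down). The junction and keratin list had 1 call each way, *Cldn3* up and *Krt17* down. Of 323 zinc-finger genes of the Zfp series 1 rose and 2 fell, with a median of -0.15. In this series 105 (32.5%) had both CLIPΔ values below both WT values, against 19.3% of all genes tested, and 18 (5.57%) had both above, against 11.5%. The 3 Y chromosome genes tested had a median of 0.050 and no call.

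**Figure D3:**
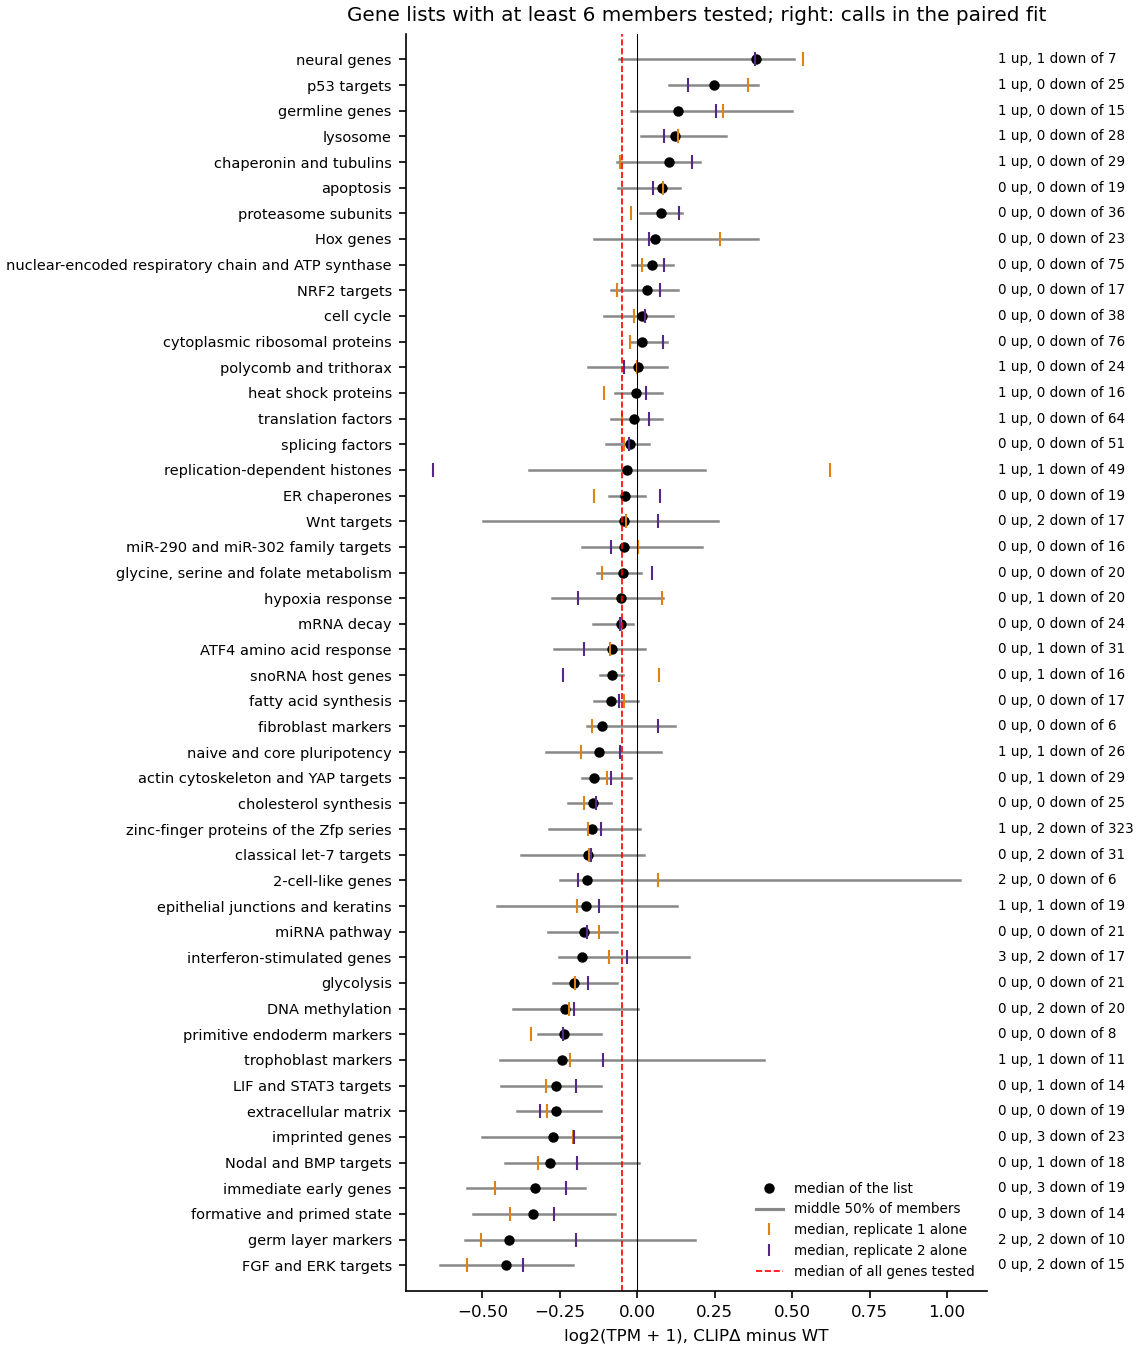
Median log2 fold change (black) of each of the 51 gene lists that has at least 6 members tested (the 6 lists made after the values had been seen are left out), the middle 50% of its members (grey line) and the median in replicate 1 (orange) and replicate 2 (purple) alone, with the number of genes that rose and fell at the right. Of the lists drawn, Fgf and Erk targets have the lowest median (-0.42), the red line marks all genes tested (-0.050), and the histone medians lie on opposite sides of 0 in the 2 replicates.

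The miRNA pathway itself had no call among 21 tested genes, with a median of -0.17. Of the 21, 11 (52.4%) had both CLIPΔ values below both WT values, against 19.3% of all genes tested, and none had both above. *Tnrc6c*, a scaffold of the silencing complex, stood at 12.8 and 12.03 TPM in WT and 8.98 and 8.29 TPM in CLIPΔ mESCs (log2 fold change -0.48 ± 0.11, limma, adjusted p = 0.0852). *Ago1* stood at 63.3 and 55.9 TPM in WT and 67.9 and 59.7 TPM in CLIPΔ mESCs, and *Ago3* at 2.06 and 1.18 TPM in WT and 1.39 and 0.948 TPM in CLIPΔ mESCs. Of 31 classical let-7 targets, *Myc* and *Fignl2*, a fidgetin-like ATPase gene, fell, and the median was -0.16. In this list 11 (35.5%) had both CLIPΔ values below both WT values, against 19.3% of all genes tested, and 2 (6.45%) had both above, against 11.5%. *Fignl2* ran from -0.21 without CLIPΔ replicate 1 to -1.49 without CLIPΔ replicate 2, and its groups overlapped. Of 16 targets of the miR-290 and miR-302 families none was called (median -0.042). The snoRNA host list had 1 call, *Rian*, among 16.

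Genes with a let-7 site were examined by sequence, since let-7 is the miRNA family at issue in these cells. The site searched was the 8mer that pairs with bases 2 to 8 of let-7a-5p and carries an A opposite base 1, in the longest annotated 3'UTR. The mature miRNA (RefSeq, GRCm38.p6) is given with its seed in capitals, followed by the first site of the 5 genes that hold such a site and fell, with the 8mer in capitals and 11 bases on either side in lower case.
let-7a-5p: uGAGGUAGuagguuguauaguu
Ndrg2: ggtgggaagagCTACCTCAggctctgacca
Prrg3: ctgtggctcccCTACCTCActggcccatta
Fignl2: ggctgcagcacCTACCTCAcgagcatgggg
Dennd1c: gcgcccatgccCTACCTCAtaggagtccat
Nfat5: taccatttattCTACCTCAgtcaccgacag
*Fignl2* holds 3 such sites and *Dennd1c* 2, and the others 1 each. *Ndrg2*, a stress-responsive gene, stood at 19.4 and 25.2 TPM in WT and 7.61 and 14.1 TPM in CLIPΔ mESCs (log2 fold change -1.02 ± 0.14, adjusted p = 0.0366, limma), *Prrg3*, a gene for a Gla-domain membrane protein, at 13.1 and 14.2 TPM in WT and 5.64 and 7.38 TPM in CLIPΔ mESCs, and *Nfat5*, a factor of the response to osmotic stress, at 14.5 and 10.9 TPM in WT and 8.72 and 6.15 TPM in CLIPΔ mESCs. Among the 129 genes that fell and have an annotated 3'UTR, these 5 make 3.88%, near the 4.27% of all genes tested. Of the 183 genes that rose, 2 (1.09%) held the site, and the 3'UTRs of the genes that rose had a median length of 736 nt against 1261 nt for all genes tested. Over all 476 tested genes with the site the median log2 fold change was -0.075, against -0.050 for all genes, while 119 of them (25%) had both CLIPΔ values below both WT values, against 19.3% of all genes tested, and 44 (9.24%) had both above, against 11.5%. Of the genes bound by Trim71 in the 3'UTR, 105 were tested, 2 fell, 0 rose and the median was -0.054. Of all genes tested, 1.22% fell and 1.64% rose.

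The genes that rose held fewer CpG dinucleotides at their starts than all genes tested. In 300 bases around the annotated start (250 before and 50 after, RefSeq, GRCm38.p6), the genes that rose held a median of 11 CpG dinucleotides (n = 148 with a sequence), those that fell 16 (n = 108) and all genes tested 21 (n = 9135). Fewer than 10 CpG were found in 47.3% of the genes that rose, in 28.7% of those that fell and in 16.0% of all. Among genes with a mean of 5 to 20 TPM, the share was 52.7% of those that rose (n = 55) and 23.3% of those that fell (n = 43). It was 16.8% of all genes tested at this level (n = 2704). A gene under 1 TPM in both WT libraries reached the mean of 1 TPM only through the CLIPΔ libraries. Such genes were tested only where they stood higher in CLIPΔ mESCs. The mean of 5 to 20 TPM also holds the CLIPΔ values. The part that this filter and the level of expression play in these shares was not tested. These are shares of genes in a list chosen by the paired test, and they carry no test of their own.

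**Figure D4:**
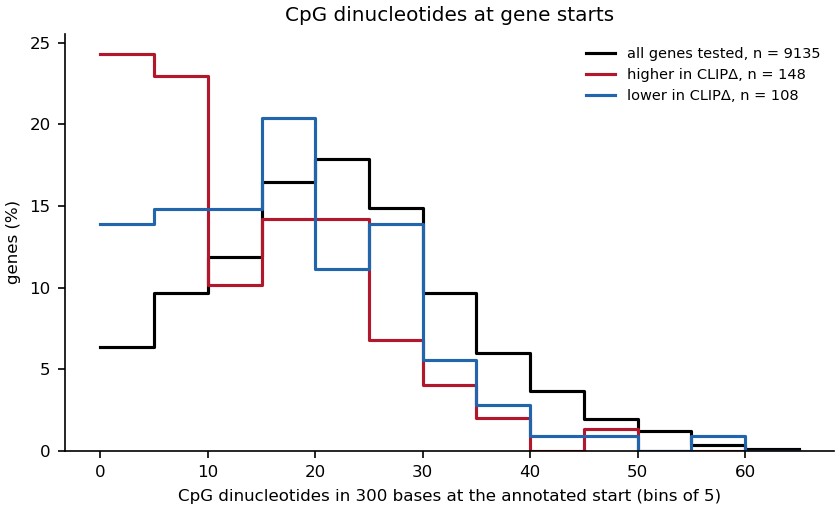
Percent of genes (y axis) by the number of CpG dinucleotides in the 300 bases at the annotated start (x axis, bins of 5) for all genes tested (black), those that rose (red) and those that fell (blue) in CLIPΔ mESCs. The risen genes pile up below 10 CpG, which holds 47.3% of them against 16.0% of all.

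Some called genes were neighbours. Stretches with at least 3 genes called one way, each within 1 Mb of the next, were listed after the values had been seen, and examples are given from those made up mostly of called genes. On chromosome 2, *Serping1*, *Ube2l6* and *Smtnl1* between 84765387 and 84822652 (GENCODE M21, GRCm38) were the 3 tested genes of their stretch, and all 3 rose. *Bhmt*, *Bhmt2* and *Dmgdh* did so on chromosome 13, from 93616675 to 93752833. On chromosome 5, *Oas1f*, *Oas1g* and *Oas1a* rose among 4 tested genes from 120847367 to 120907521. On chromosome 10, *Aire*, *Dnmt3l* and *Icosl* fell side by side from 78030022 to 78083913, and on chromosome 12 *Meg3*, *Rian* and *Mirg* were 3 of 4 tested genes from 109541001 to 109749460. On the X chromosome, *Armcx4*, *Armcx6* and *Armcx2* were 3 of 5 tested genes from 134686519 to 134809221. The metallothioneins *Mt4*, *Mt2* and *Mt1* rose among 4 tested genes of chromosome 8 from 94137197 to 94180327, and the lens crystallin genes *Cryge* and *Crygd* rose with D630023F18Rik among 4 of chromosome 1 from 65048554 to 65123214. *Zyx*, *Epha1* and *Arhgef5* fell among 4 tested genes of chromosome 6 from 42349630 to 43289320. *Aire*, the autoimmune regulator, stood at 19.7 and 31.8 TPM in WT and 11.9 and 12.5 TPM in CLIPΔ mESCs and *Icosl*, a ligand of T cells, at 34.0 and 37.6 TPM in WT and 21.9 and 18.5 TPM in CLIPΔ mESCs. *Serping1*, an inhibitor of complement C1, stood at 3.27 and 5.03 TPM in WT and 13.5 and 14.2 TPM in CLIPΔ mESCs, and *Ube2l6*, the conjugating enzyme of Isg15, at 3.51 and 4.88 TPM in WT and 13.1 and 17.4 TPM in CLIPΔ mESCs.

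Whether these differences were also found without *Ago2* was asked in one model of all 12 libraries, with an interaction of CLIPΔ and *Ago2* KO. The interaction passed in 81 genes, or 0.696% of those tested, and the difference between *Ago2* KO/CLIPΔ and *Ago2* KO mESCs in 85 genes, or 0.73%. Of the 191 genes that rose, 51 had a called interaction and 9 also passed in the same direction without *Ago2*. Of the 142 that fell, 7 had a called interaction, 7 passed without *Ago2* in the same direction and 3 in the opposite direction. The interaction holds the same WT and CLIPΔ libraries by which these genes were called, so an interaction against the direction of the call was favoured by the choice of genes, and the counts of 51 and 7 are descriptions. The interaction count rested on the KO libraries used, with 0 genes for KO replicates 1 and 2 alone (limma, 825 at an unadjusted p under 0.05) and 12 for replicates 3 and 4 alone. The labels give no batch, so that a difference in handling and the loss of *Ago2* cannot be told apart.

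In *Dppa3* and *Ly6a* the difference was smaller without *Ago2*. *Dppa3* had a median of 2.18 TPM in the *Ago2* KO and 2.02 TPM in the *Ago2* KO/CLIPΔ mESCs, with a highest value of 3.39 TPM over the 8 libraries, against the 28.3 and 18.8 TPM of WT mESCs. The difference without *Ago2* was -0.048 ± 0.26 (log2) and the interaction -2.94 ± 0.46 (adjusted p = 0.00990, limma). *Ly6a* had medians of 247 TPM and 237 TPM in the 2 KO genotypes, above the WT and below the CLIPΔ values, and an interaction of -1.83 ± 0.14 (adjusted p = 0.000356, limma). *Pramel6* was higher without *Ago2* as well, by 0.77 ± 0.12, less than with it (interaction adjusted p = 0.00722, limma).

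*Gli1* was lower in CLIPΔ cells with and without *Ago2*. It ran from 8.61 to 11.7 TPM in the 4 *Ago2* KO and from 3.41 to 4.69 TPM in the 4 *Ago2* KO/CLIPΔ libraries, close to the values of WT and CLIPΔ mESCs, and the groups did not overlap. Its difference was -1.14 ± 0.12 without *Ago2* and -1.27 with it, and the interaction was not called (0.13 ± 0.22, adjusted p = 0.951, limma). *Clip3* ran from 17.8 to 19.3 TPM against 6.60 to 10.5 TPM, and *Tcf15* from 32.4 to 41.6 TPM against 18.9 to 24.2 TPM, in both cases with no overlap. *Meg3*, *Rian* and *Mirg* turned around, lower in CLIPΔ than in WT mESCs and higher in *Ago2* KO/CLIPΔ than in *Ago2* KO mESCs by 1.03 ± 0.17, 1.00 ± 0.14 and 0.87 ± 0.10 on the log2 scale.

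**Figure D5:**
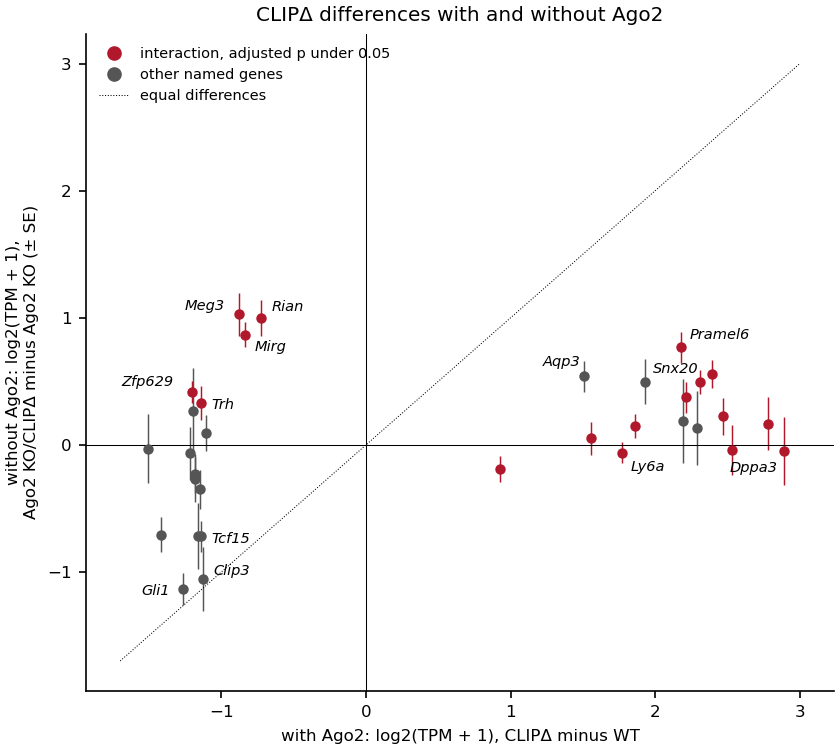
Log2 difference between CLIPΔ and WT mESCs (x axis) against that between *Ago2* KO/CLIPΔ and *Ago2* KO mESCs (y axis). The y axis is given ± standard error, with 4 libraries each. Shown are the 12 highest and 12 lowest fold changes among called genes that averaged 5 TPM or more and had no overlap. Another 9 genes named in the text are shown too. Red marks genes whose interaction passed an adjusted p of 0.05. The risen genes lie between -0.19 and 0.77 on the y axis, *Gli1* and *Clip3* lie on the dotted line of equal differences, and *Meg3*, *Rian* and *Mirg* lie above 0.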

How the data were processed

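Total RNA of mESCs was isolated with Trizol and RNA-seq libraries were made with a directional kit. Per the paper and the submitters' notes, reads were aligned with HISAT2 2.1.0 (mm10) and HTSeq counts over 1 transcript per gene, the longest, were turned by the authors into the deposited TPM values. These keep no depth. Only genes above 0 in all 12 libraries are listed. Each library summed to between 998656 and 999082 TPM. The authors also deposited counts of reads in Trim71 CLIP peaks, of which only the positions were used here. The column code of the CLIPΔ libraries was read as CLIPΔ because the other genotypes are named in plain form.

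log2(TPM + 1) values of the 11642 genes were fitted with limma 3.58.1 (eBayes with trend, R 4.3.3) and Benjamini–Hochberg adjustment, without and with the replicate number as a block. The numbers come from the labels. The authors' edgeR test was not used, since TPM are not counts. Same-numbered libraries deviated together at r = 0.716 across genes. Fits were tested on simulated data. Symbols matched GENCODE M21 or RefSeq for 11639 genes.

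Members and the 51 gene lists were chosen with earlier results of these data known. Named genes are *Argonaute* genes, *Trim71*, *Lin28a*, *Cdkn1a* and core factors, the 12 highest and 12 lowest called fold changes without overlap and with a mean of at least 5 TPM, the 6 smallest unpaired p-values, up to 4 called members per list and direction (otherwise the 2 largest changes) and the 5 largest changes among genes of at least 100 TPM. *Sox2* and mitochondrially encoded mRNAs were not analysed here. Other genes, and 6 further lists, were chosen after their values were seen. Alternatives were other pseudocounts, filters, scalings, moderations and error models, and leaving out single libraries.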

Additional observations from a re-analysis of the deposited data

Results flagged for a closer look

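The difference between CLIPΔ and WT mESCs changed with the loss of *Ago2* in 81 genes by the interaction term of the model over 12 libraries (limma, adjusted p under 0.05). Genes named for their difference between CLIPΔ and WT mESCs were chosen on libraries that the interaction also holds. Among the named genes, the interaction on the log2 scale was negative, that is, a smaller rise or none without *Ago2*, in *Dppa3* (-2.94), *Slc22a13b-ps* (-2.62), *Rhox3g* (-2.57), *Srarp* (-2.24), *Tnni1* (-1.83), *Bhmt* (-1.81), *Aurkc* (-1.84), *Pramel6* (-1.41), *Smtnl1* (-1.71), *Oas1f* (-1.80), *Tfap2c* (-1.12), *Ly6a* (-1.83) and *Calcoco2* (-1.50). It was positive, with a negative difference in the presence of *Ago2* and a positive one in its absence, in *Meg3* (1.90), *Mirg* (1.71), *Rian* (1.73), *Zfp629* (1.62) and *Trh* (1.47). *Zfp629*, a zinc-finger gene, stood at 5.72 and 6.32 TPM in WT and 2.15 and 1.96 TPM in CLIPΔ mESCs. With replicates 1 and 2 of the KO genotypes alone, 0 genes passed in limma (825 at an unadjusted p under 0.05), and with replicates 3 and 4 alone, 12 did.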

How the results depend on the processing

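The unpaired count of 0 (limma) became 333 with the replicate block and 284 with the spread of all 12 libraries, of which 174 were also called in the paired fit, and stayed at 0 under the other settings of pseudocount, filter, scaling and moderation. Leaving out 1 library at a time gave between 0 and 180 genes, with 51 without CLIPΔ replicate 1 and 180 without CLIPΔ replicate 2, where the lone library is assumed to vary like the others. The paired count of 333 became 0 without the block, 0 without a filter on low values (limma, 2869 at an unadjusted p under 0.05), 221 with a pseudocount of 5 and 918 after median centring. The cause was not tested. Under the remaining settings, which include Mir6236 left out and robust moderation, both chosen after seeing the data, the paired count lay between 244 and 437, with at least 233 genes shared. The 12 highest and 12 lowest fold changes were taken among paired calls with a mean of at least 5 TPM and no overlap. Of these 24 genes, 19 were also called without pairing when the spread came from all 12 libraries. They were chosen on the WT and CLIPΔ libraries that this fit also holds, so the count was favoured by the choice of genes. The interaction count of 81 became 91 with the replicate block, 0 with KO replicates 1 and 2 only and 12 with KO replicates 3 and 4 only. Leaving out 1 library turned the direction of *Fos* (from -2.99 to 1.00), *Jun* (-2.01 to 0.19) and *Slc7a3* (-1.20 to 0.0096), and no other called gene chosen by the naming rule changed direction under any setting. The depth of the libraries is unknown, so that the precision of low values rests on 2 replicates.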
